A study of Arabidopsis thaliana with 6 samples.

Results

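Flavonoids of Arabidopsis thaliana, which include colourless flavonols and red to purple anthocyanins, are made from phenylalanine by a chain of enzymes whose genes fall into early and late steps. The levels of 32 genes of this pathway were read in plants that overexpress the microProtein LITTLE NINJA (LNJ-OX), in the jazD mutant and in Col-0 wild type. The genes were taken by their locus identifiers from the count tables, which list 32833 loci, and comprised 20 enzyme or transport genes and 12 regulators. The enzyme genes were divided into 6 of the general phenylpropanoid steps, 6 early flavonoid genes, 6 late anthocyanin genes and 2 flavonoid 3-O-glycosyltransferases. All 32 genes passed the filter on low counts, as did 21374 loci in all.

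LNJ-OX plants were stunted in a way that recalled jazD, and for that reason the study read the RNA of both genotypes beside that of wild type. LNJ-OX plants carry a FLAG-tagged fragment built on AFP2, an Arabidopsis relative of LNJ, under a double cauliflower mosaic virus promoter that is active in most cells. The lines were homozygous in the third generation and in the Col-0 background, and which line gave the RNA is not given in the sources used here. jazD is a decuple mutant that lacks a large part of the JAZ family of jasmonate repressors, and it too is in the Col-0 background. Plants of all 3 genotypes were 21 days old, untreated, grown on soil in long days and harvested without roots, with 2 libraries per genotype and 10164591 to 15003290 counts per library. The study describes these as biological replicates, and how many plants entered each library is not given.

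The transgene could be seen in the counts. AFP2 (AT1G13740) stood at 63.5 and 49.998 CPM (counts scaled to a common library total) in LNJ-OX, 8.81 and 9.14 CPM in jazD, and 8.19 and 10.99 CPM in Col-0, and reads of the transgene and of the native gene cannot be told apart. Green shoot markers were high in all libraries, with sums of 33398 to 55465 CPM over 5 genes. Of 5 root markers, 4 had a summed level under 1 CPM in every library, while PYK10 (AT3G09260), a myrosinase of endoplasmic reticulum bodies, stood at 45.7 and 24.9 CPM in LNJ-OX, 99.2 and 173 CPM in jazD, and 8.63 and 21.1 CPM in Col-0. PYK10 was called higher in jazD, and LNJ-OX gave a log2 fold change of 1.26 (adjusted p 0.147). Flower markers were present in every library and uneven, as given below beside the early genes.

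In this pathway PAL, C4H and 4CL turn phenylalanine into an activated cinnamic acid that also feeds lignin, and chalcone synthase commits it to flavonoids. The early genes are known to be controlled by the flavonol activators MYB11, MYB12 and MYB111, and the late genes by a complex of an anthocyanin MYB (PAP1, PAP2, MYB113 or MYB114), a bHLH factor (TT8, GL3 or EGL3) and the WD40 protein TTG1. JAZ proteins are known to bind MYB and bHLH members of this complex, and jasmonate is known to raise anthocyanin in seedlings.

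The regions before 5 of the genes are shown because each holds an element of a kind that bHLH factors are known to bind. Those of CHIL and MYB114 also hold one of a kind that MYB factors are known to bind. The choice also rested on MYB113, the gene with the largest difference between genotypes here, which stands in a row with MYB114 and PAP2 on chromosome 1. Each line gives the 250 bases before the annotated start, read on the gene's strand from the RefSeq assembly TAIR10.1, from which exon lengths were also taken. Capitals mark CANNTG, of which CACGTG is one form, and ACCTAAC or its reverse complement. The windows lie at chr1:24753339-24753588 (plus strand) for MYB113, chr1:24757048-24757297 (plus) for MYB114, chr1:24763691-24763940 (plus) for PAP2, chr5:1563036-1563285 (plus) for the early gene CHIL and chr5:21938397-21938646 (minus) for the late gene UGT79B1, and none overlaps another annotated gene.
MYB113: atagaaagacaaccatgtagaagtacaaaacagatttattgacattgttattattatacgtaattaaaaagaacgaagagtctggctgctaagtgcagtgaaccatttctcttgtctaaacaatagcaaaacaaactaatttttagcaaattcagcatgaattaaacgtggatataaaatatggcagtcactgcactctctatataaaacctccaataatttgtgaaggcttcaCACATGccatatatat
MYB114: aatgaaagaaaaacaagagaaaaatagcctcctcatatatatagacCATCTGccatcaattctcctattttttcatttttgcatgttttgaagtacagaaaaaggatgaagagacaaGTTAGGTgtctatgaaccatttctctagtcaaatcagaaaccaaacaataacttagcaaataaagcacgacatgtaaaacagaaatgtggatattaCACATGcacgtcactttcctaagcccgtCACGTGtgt
PAP2: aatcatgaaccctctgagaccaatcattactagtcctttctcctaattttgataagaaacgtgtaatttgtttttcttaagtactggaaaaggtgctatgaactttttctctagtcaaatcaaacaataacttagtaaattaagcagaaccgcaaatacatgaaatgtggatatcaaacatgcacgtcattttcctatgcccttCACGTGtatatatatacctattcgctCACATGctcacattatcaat
CHIL: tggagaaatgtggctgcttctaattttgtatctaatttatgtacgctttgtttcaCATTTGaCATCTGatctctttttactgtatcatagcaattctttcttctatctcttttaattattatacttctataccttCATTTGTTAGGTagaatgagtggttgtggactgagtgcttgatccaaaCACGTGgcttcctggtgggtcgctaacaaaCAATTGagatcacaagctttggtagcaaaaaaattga
UGT79B1: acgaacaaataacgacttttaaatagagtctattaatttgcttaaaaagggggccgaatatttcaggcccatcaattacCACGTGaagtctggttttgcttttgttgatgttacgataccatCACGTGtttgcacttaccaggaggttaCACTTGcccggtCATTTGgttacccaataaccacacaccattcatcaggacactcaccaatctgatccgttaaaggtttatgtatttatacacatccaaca

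The MYB113 window held 1 CANNTG, 16 bases before the start, and no CACGTG. MYB114 had CACGTG 9 bases and PAP2 46 bases before the start, CHIL had it at 67 bases and UGT79B1 at 171 and 128 bases. In CHIL and MYB114 ACCTAAC stood on the opposite strand, at 110 and 133 bases, and in CHIL it overlapped a CANNTG by 1 base. Searched on both strands in all members, CACGTG was found before 8 of 32 genes (25.0%), which also included CHS, F3H, DFR and MYB12, and before 6.49% of 27443 protein-coding genes. CANNTG was found before 20 members (62.5%) and 55.3% of protein-coding genes. ACCTACC was found before 1 member (3.12%) and 1.16% of protein-coding genes. For ACCAACC these were 3 members (9.38%) and 2.69%, and for ACCTAAC 2 members (6.25%) and 2.46%. The window of F3H overlaps another annotated gene, as do those of 4CL2, UGT75C1, GSTF12, UGT78D1, GL3 and MYBL2.

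Differences were tested with edgeR's quasi-likelihood test over all loci, and called genes are those whose log2 fold change lay beyond 1 in either direction while the Benjamini-Hochberg adjusted p was below 0.01, the thresholds of the study. With its own procedure the study reports more genes at these thresholds, in both genotypes and both directions, than were called here. In LNJ-OX against Col-0, 0 of 32 members were called higher or lower, where 0.837% of all loci were called higher and 0.585% lower. DESeq2 called 2 members lower, where it called 1.66% of all loci, and limma-voom 0 (0.393%). At an unadjusted p under 0.05, 13 members were lower in LNJ-OX (9.4% of all loci) and 0 higher (8.97% of all loci). In jazD against Col-0, 0 members were called in edgeR, where 0.44% of all loci were called higher and 0.674% lower. DESeq2 called 1 member higher, where it called 1.3% of all loci, and limma-voom 0 (0.365%). At an unadjusted p under 0.05, 7 members were lower in jazD (8.59% of all loci) and 1 was higher (6.26%). Both comparisons used the same Col-0 libraries. In LNJ-OX against jazD, MYB113 alone was called, lower in LNJ-OX (0.332% of all loci), and 0 members were called higher (0.449%). At an unadjusted p under 0.05, 3 members were lower in LNJ-OX (5.41% of all loci) and 1 was higher (7.72%).

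**Figure D1:**
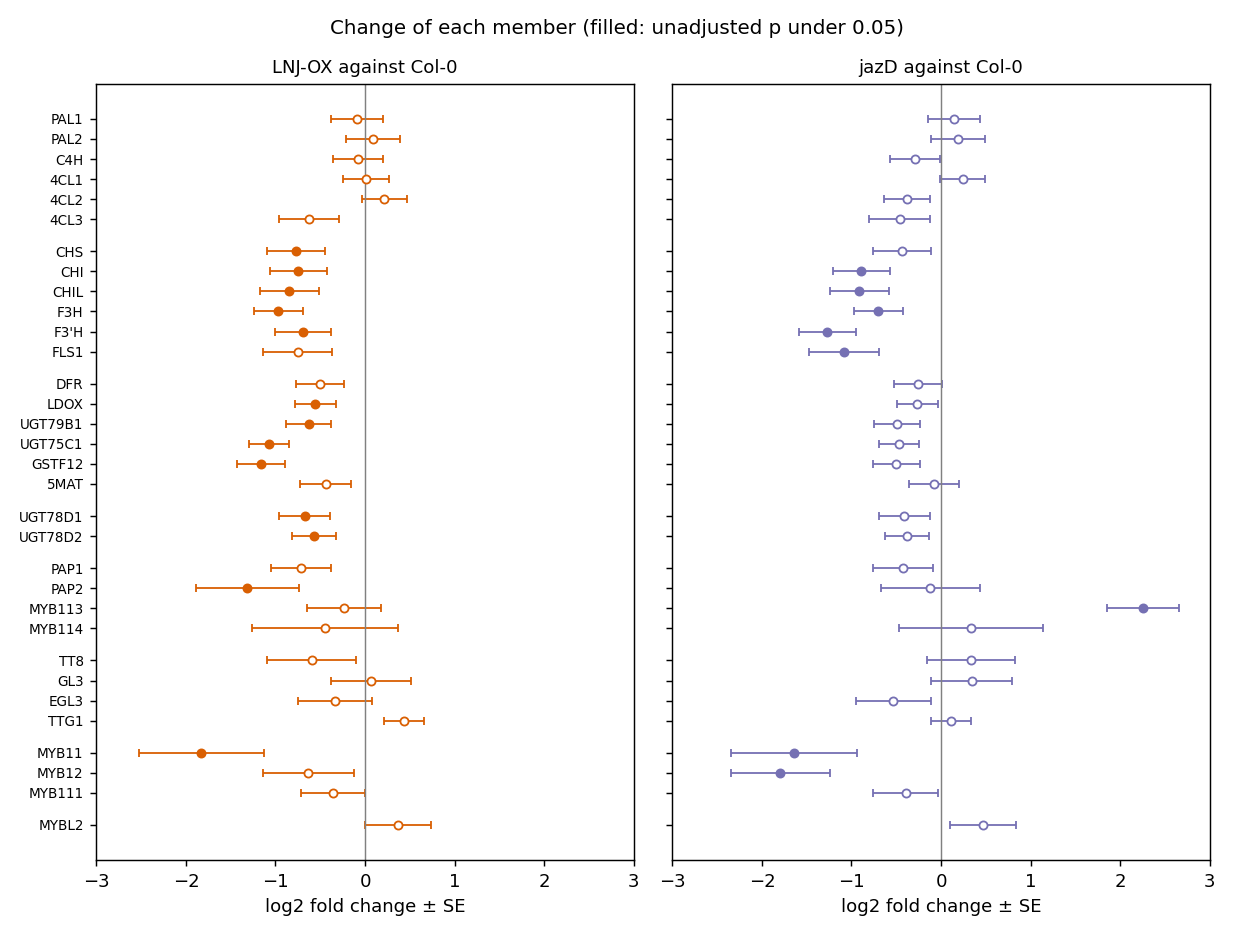
Log2 fold change with its standard error for the 32 genes, in LNJ-OX against Col-0 (left) and jazD against Col-0 (right), with filled points at an unadjusted p under 0.05. The 12 early and late genes from CHS to 5MAT lie left of 0 in both panels, and MYB113 lies at 2.25 in jazD and -0.23 in LNJ-OX.

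None of the general phenylpropanoid genes passed an unadjusted p of 0.05 against Col-0. PAL1 (AT2G37040) and PAL2 (AT3G53260) deaminate phenylalanine, C4H (AT2G30490) hydroxylates the product, and 4CL1 (AT1G51680), 4CL2 (AT3G21240) and 4CL3 (AT1G65060) attach coenzyme A. Against Col-0 their median was -0.03 for LNJ-OX and -0.07 for jazD on the log2 scale, beside medians of -0.01 and 0.01 over all loci, and in each comparison 3 of the 6 were positive. Unadjusted p-values ran from 0.092 to 0.967 in LNJ-OX and from 0.162 to 0.626 in jazD. C4H was read at 272 and 336 CPM in LNJ-OX, 269 and 256 CPM in jazD, and 279 and 362 CPM in Col-0. The 95% interval of its log2 fold change ran from -0.69 to 0.54 in LNJ-OX and from -0.90 to 0.32 in jazD. 4CL3, the 4CL isoform linked to flavonoids, had the lowest values, at -0.62 ± 0.34 (SE) for LNJ-OX and -0.46 ± 0.34 for jazD on the log2 scale.

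4CL2 was the one gene of these steps with an unadjusted p under 0.05 in any comparison, that of LNJ-OX with jazD. It stood at 15.0 and 16.1 CPM in LNJ-OX, against 10.3 and 10.3 CPM in jazD, with Col-0 between them at 12.1 and 14.7 CPM. The log2 fold change of LNJ-OX against jazD was 0.60 ± 0.25 (SE), with an unadjusted p of 0.0386 and an adjusted p of 0.34.

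**Figure D2:**
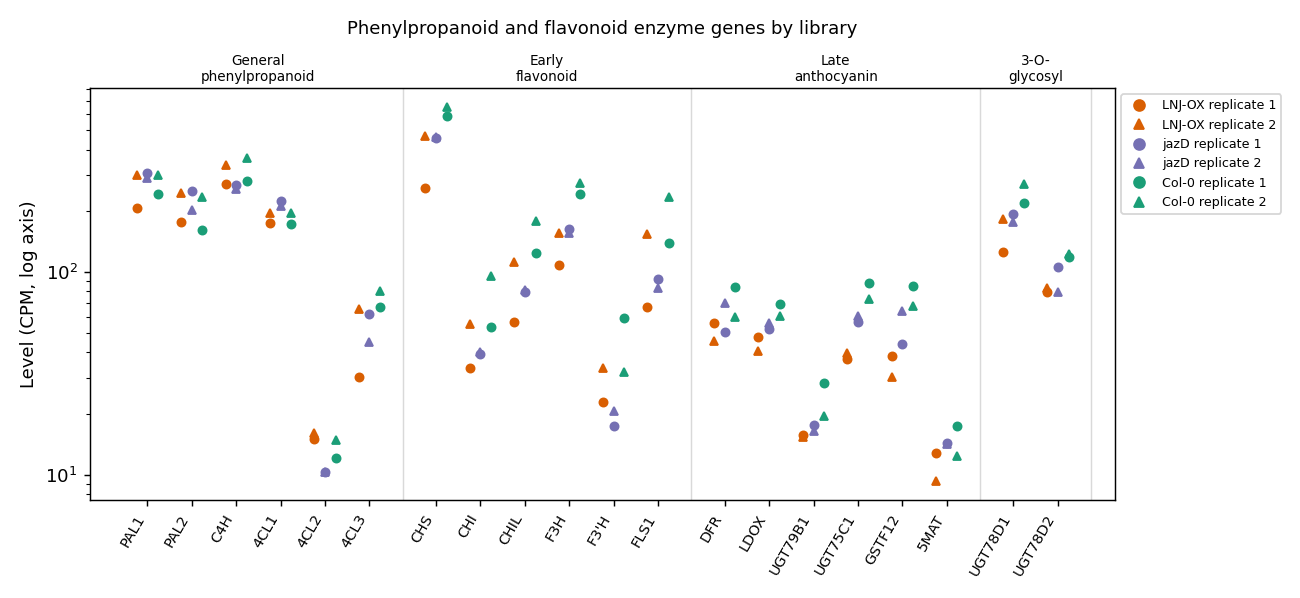
Level of each enzyme gene in CPM on a log axis, with circles for replicate 1 and triangles for replicate 2 of LNJ-OX, jazD and Col-0 from left to right within a gene. For the early genes both jazD libraries lie below both Col-0 libraries, and the LNJ-OX libraries lie apart from each other, as in CHS at 261 and 467 CPM.

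The 6 early flavonoid genes were read at lower levels in both genotypes than in Col-0, and none of the differences reached the threshold for a call. Median log2 fold changes stood at -0.76 for LNJ-OX and -0.90 for jazD, and all 6 were negative in both, where 50.7 and 49.2% of all loci were. In jazD, both libraries lay below both Col-0 libraries in 6 of 6 genes, as did 21.1% of all loci. In LNJ-OX this held for 3 of 6 genes, CHS, CHIL and F3H, and for 23.9% of all loci. In these whole shoots, fewer cells that make flavonoids and less RNA per cell cannot be told apart.

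CHS (AT5G13930), which joins the activated acid with malonyl units into a chalcone, was the most abundant member. Its level was 261 and 467 CPM in LNJ-OX, 456 and 460 CPM in jazD, and 587 and 653 CPM in Col-0. The Col-0 libraries were the highest, and LNJ-OX replicate 1 was the lowest by a wide margin. Against Col-0 this gave -0.77 ± 0.33 (SE) on the log2 scale for LNJ-OX (unadjusted p 0.0381, adjusted p 0.238) and -0.44 ± 0.33 for jazD (adjusted p 0.653).

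CHI (AT3G55120) closes the chalcone ring, and CHIL (AT5G05270) is a relative without that activity that is known to help chalcone synthase. CHI stood at 33.4 and 55.1 CPM in LNJ-OX, 39.5 and 40.4 CPM in jazD, and 53.6 and 95.03 CPM in Col-0. CHIL stood at 56.6 and 112 CPM in LNJ-OX, 79.2 and 81.3 CPM in jazD, and 124 and 178 CPM in Col-0. Both genes were low in jazD with nearly equal libraries, whereas in LNJ-OX replicate 2 of CHI reached into the range of Col-0. The log2 fold changes in jazD were -0.89 ± 0.32 for CHI (adjusted p 0.186) and -0.91 ± 0.33 for CHIL (adjusted p 0.195). In LNJ-OX they were -0.75 ± 0.32 for CHI (adjusted p 0.24) and -0.85 ± 0.33 for CHIL (adjusted p 0.197). Single libraries moved these values, and CHI gave -0.28 in LNJ-OX and -0.42 in jazD without Col-0 replicate 2, and -1.15 in LNJ-OX without LNJ-OX replicate 2.

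F3H (AT3G51240) hydroxylates the flavanone core and F3'H (AT5G07990) its side ring. F3H stood at 109 and 155 CPM in LNJ-OX, 162 and 156 CPM in jazD, and 241 and 275 CPM in Col-0, with no overlap of either genotype with Col-0. Its difference from Col-0 was the largest of the early genes in LNJ-OX, at -0.97 ± 0.28 on the log2 scale (unadjusted p 0.00485, adjusted p 0.0767), and -0.70 ± 0.27 in jazD (adjusted p 0.241). F3'H stood at 22.8 and 33.6 CPM in LNJ-OX, 17.3 and 20.5 CPM in jazD, and 59.2 and 31.9 CPM in Col-0. Its jazD libraries were the lowest, and LNJ-OX replicate 2 was above Col-0 replicate 2. The log2 fold change was -1.27 ± 0.32 in jazD (unadjusted p 0.00225, adjusted p 0.0525) and -0.70 ± 0.31 in LNJ-OX (adjusted p 0.266). Without Col-0 replicate 1, F3'H gave -0.16 in LNJ-OX and -0.73 in jazD, and without Col-0 replicate 2 it gave -1.07 in LNJ-OX and -1.64 in jazD.

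FLS1 (AT5G08640), the main flavonol synthase, draws the pathway toward flavonols rather than anthocyanins. Its level was 66.8 and 154 CPM in LNJ-OX, 92.6 and 82.8 CPM in jazD, and 139 and 233 CPM in Col-0. The LNJ-OX libraries spanned a wider range than the gap between jazD and Col-0. The log2 fold change was -1.08 ± 0.39 in jazD (unadjusted p 0.0178, adjusted p 0.186) and -0.75 ± 0.39 in LNJ-OX (unadjusted p 0.078, adjusted p 0.34). Without Col-0 replicate 2 the value of FLS1 in jazD was -0.66.

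The late genes were also read at lower levels, more so in LNJ-OX than in jazD by their medians, which were -0.59 and -0.37 on the log2 scale. All 6 were negative in both comparisons with Col-0. In LNJ-OX both libraries lay below both Col-0 libraries in 5 of 6 genes (23.9% of all loci), and in jazD in 4 of 6 (21.1%). LNJ-OX also lay below jazD in both libraries for 5 of 6 late genes, where 25% of all loci did, with a median log2 fold change of -0.33. For the early genes that median was 0.11, and 4 of the 6 were positive.

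UGT75C1 (AT4G14090) and GSTF12 (AT5G17220) were the late genes with the largest differences. UGT75C1 adds a glucose to anthocyanin, and it stood at 37.2 and 39.8 CPM in LNJ-OX, 56.6 and 60.3 CPM in jazD, and 87.9 and 73.8 CPM in Col-0. The 3 genotypes did not overlap, with LNJ-OX lowest and jazD in between. Differences on the log2 scale were -1.07 ± 0.23 (SE) for LNJ-OX against Col-0 (adjusted p 0.0228), -0.47 ± 0.22 in jazD against Col-0 (adjusted p 0.378) and -0.60 ± 0.23 in LNJ-OX against jazD (unadjusted p 0.0219, adjusted p 0.257). GSTF12, also known as TT19, carries anthocyanin to the vacuole. It stood at 38.3 and 30.4 CPM in LNJ-OX, 44.3 and 64.2 CPM in jazD, and 85.4 and 68.1 CPM in Col-0. The order was the same as for UGT75C1, without overlap. They were -1.16 ± 0.27 for LNJ-OX against Col-0 (adjusted p 0.0326), -0.50 ± 0.26 in jazD against Col-0 (adjusted p 0.442) and -0.66 ± 0.27 in LNJ-OX against jazD (adjusted p 0.302). These 2 genes passed an adjusted p of 0.05 in LNJ-OX in edgeR, as did 2.29% of all loci on the lower side, and were the 2 that DESeq2 called, at adjusted p-values of 0.00149 and 0.00308. In edgeR they stayed above an adjusted p of 0.05 with library totals, at 0.0607 for UGT75C1 and 0.0814 for GSTF12. Without LNJ-OX replicate 1 their adjusted p-values were 0.239 and 0.127, and without LNJ-OX replicate 2 they were 0.11 and 0.195.

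LDOX (AT4G22880) makes the anthocyanidin and UGT79B1 (AT5G54060) adds a xylose to it once glucosylated. LDOX stood at 47.7 and 40.6 CPM in LNJ-OX, 52.1 and 55.9 CPM in jazD, and 69.2 and 60.4 CPM in Col-0. UGT79B1 stood at 15.7 and 15.3 CPM in LNJ-OX, 17.6 and 16.4 CPM in jazD, and 28.4 and 19.4 CPM in Col-0. Both genes were lowest in LNJ-OX with close replicates, and the Col-0 replicates of UGT79B1 were far apart. The log2 fold changes in LNJ-OX were -0.55 ± 0.23 for LDOX (unadjusted p 0.032, adjusted p 0.218) and -0.63 ± 0.25 for UGT79B1 (unadjusted p 0.0311, adjusted p 0.213), and UGT79B1 gave -0.31 without Col-0 replicate 1. In jazD they were -0.26 ± 0.23 and -0.50 ± 0.26, with adjusted p-values of 0.713 and 0.431.

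DFR (AT5G42800), the first step that is particular to anthocyanins and proanthocyanidins, and 5MAT (AT3G29590), an anthocyanin malonyltransferase, stayed above an unadjusted p of 0.05. DFR was read at 56.0 and 45.4 CPM in LNJ-OX, 50.4 and 70.1 CPM in jazD, and 84.2 and 59.6 CPM in Col-0. 5MAT was read at 12.7 and 9.29 CPM in LNJ-OX, 14.3 and 14.1 CPM in jazD, and 17.5 and 12.4 CPM in Col-0. In jazD both genes overlapped Col-0, and both had a positive log2 fold change when Col-0 replicate 1 was left out, which brought the late median of jazD to -0.16. The 12 early and late genes were otherwise negative in both genotypes under every alternative, and in LNJ-OX without exception. Without Col-0 replicate 1 the late median of LNJ-OX was -0.37, and without Col-0 replicate 2 it was -0.80.

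The 2 glycosyltransferases that act at the same position on flavonols and anthocyanins followed the same order of levels. UGT78D1 (AT1G30530), a flavonol rhamnosyltransferase, stood at 125 and 182 CPM in LNJ-OX, 193 and 175 CPM in jazD, and 218 and 271 CPM in Col-0. UGT78D2 (AT5G17050), a glucosyltransferase, stood at 79.2 and 83.0 CPM in LNJ-OX, 105 and 79.4 CPM in jazD, and 119 and 122 CPM in Col-0. No library of LNJ-OX or jazD reached the lower Col-0 library of either gene. The log2 fold changes were -0.67 ± 0.28 (adjusted p 0.235) and -0.57 ± 0.25 (adjusted p 0.246) in LNJ-OX, and -0.41 ± 0.28 and -0.38 ± 0.25 in jazD.

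Levels between genes were compared as mean CPM per kilobase of exon. In Col-0 the early genes had a median of 112, the late genes 46.8 and the general phenylpropanoid genes 70.3, with CHS highest at 364. In LNJ-OX the medians were 64.6 for early, 27.3 for late and 72.6 for general phenylpropanoid genes. In jazD they were 56.1, 37.0 and 81.7 in the same order of groups.

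The 2 LNJ-OX libraries differed from each other in the early genes by as much as LNJ-OX differed from Col-0. All 6 early genes were lower in replicate 1 than in replicate 2, with a median difference of -0.78 on the log2 CPM scale, where the median absolute difference over all loci was 0.25. The late genes went the other way, with 5 of 6 higher in replicate 1 and a median difference of 0.27. In Col-0 the signs were mostly the same, with 5 of 6 early genes lower in replicate 1 and 6 of 6 late genes higher. Median differences there were -0.36 for the early genes (median absolute 0.63) and 0.41 for the late genes. Over all loci the median absolute difference in Col-0 was also 0.41, so the late genes differed no more than loci in general. The general phenylpropanoid genes were lower in replicate 1 in 6 of 6 cases in both LNJ-OX and Col-0. In jazD the early replicates differed by a median absolute 0.05 on that scale. Without LNJ-OX replicate 1 the early median of LNJ-OX against Col-0 was -0.42, and without replicate 2 it was -1.25. Against jazD it was 0.47 and -0.45 in those fits, so the order of LNJ-OX and jazD for the early genes rested on which LNJ-OX library was kept.

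By their sum, flower markers were also lowest in jazD and in LNJ-OX replicate 1. The summed level of 10 flower genes was 51.7 and 149 CPM in LNJ-OX, 29.3 and 41.4 CPM in jazD, and 172 and 166 CPM in Col-0. LNJ-OX replicate 1, the low library for the early genes, was also the lower of its genotype here. Against Col-0, all 10 flower genes were negative in jazD with a median log2 fold change of -1.74, and 7 of 10 in LNJ-OX with a median of -0.26. Of the 10 flower genes, the pollen gene AGP11 (AT3G01700) alone was called, lower in both genotypes. Its counts were 0 and 12 in LNJ-OX, 3 and 6 in jazD, and 272 and 144 in Col-0. In LNJ-OX the pollen genes PPME1 and VGD1 had log2 fold changes of -1.49 and -2.52. The tapetum genes AMS and A9 were positive there, at 1.07 and 1.25 (adjusted p 0.368 and 0.339), with libraries that overlapped Col-0. The floral MADS genes AP1, AP3, PI, AG and SEP3 ran from -0.40 to 0.14 in LNJ-OX. LNJ-OX replicate 1 lay above both jazD libraries in the 10-gene flower sum and below them in mean early level. The early levels were 6.05 log2 CPM in that library and 6.41 and 6.43 log2 CPM in jazD. By class, it lay above jazD in floral MADS genes (42.0 against 19.5 and 28.5 CPM) and tapetum genes (7.57 against 3.57 and 2.545 CPM). In pollen genes it lay below jazD (2.17 against 6.19 and 10.4 CPM). In Col-0, replicate 1 had the slightly higher 10-gene sum and the lower mean early level (7.14 against 7.40). The pollen genes were higher in Col-0 replicate 1 than in replicate 2 (102.5 against 68.2 CPM). The floral MADS genes (64.6 against 86.1 CPM) and the tapetum genes (4.79 against 11.5 CPM) were lower in it. The part of flower tissue in the early values was not tested.

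**Figure D3:**
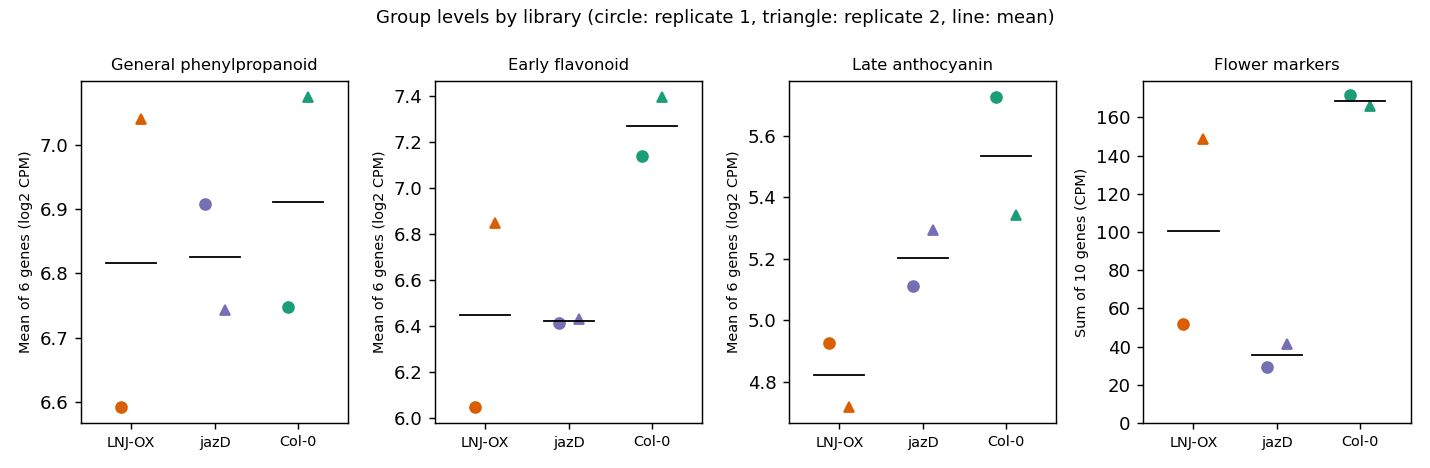
Mean log2 CPM of the 6 general phenylpropanoid, 6 early and 6 late genes, and summed CPM of 10 flower markers, in each library (circle, replicate 1; triangle, replicate 2), with the mean of each genotype as a line. LNJ-OX replicate 1 is low in the first 2 panels and in the flower panel, at 51.7 CPM, but above replicate 2 in the late panel, and the log2 axes do not start at 0.

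Among the regulators, MYB113 (AT1G66370, chr1:24753589-24754761), an activator of anthocyanin genes, differed between genotypes. It stood at 3.29 and 1.55 CPM in LNJ-OX, 15.6 and 11.97 CPM in jazD, and 2.77 and 3.01 CPM in Col-0, from counts of 50 and 18 in LNJ-OX, 149 and 127 in jazD, and 44 and 32 in Col-0. Both jazD libraries were several times above every other library, and LNJ-OX and Col-0 overlapped. MYB113 was lower in LNJ-OX than in jazD by 2.48 ± 0.40 (SE) on the log2 scale, with an adjusted p of 0.0097 in edgeR. In jazD against Col-0 the log2 fold change was 2.25 ± 0.40 with an adjusted p of 0.012, past 0.05 (as for 1.44% of all loci on the higher side) but short of the threshold for a call, and in LNJ-OX against Col-0 it was -0.23 ± 0.41 (adjusted p 0.82).

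Where the threshold fell for MYB113 varied with the procedure, while both differences with jazD kept their direction in all 14 other fits. The call against LNJ-OX was lost with library totals (adjusted p 0.0142), with limma-voom (0.0103), with a filter at 1 CPM (0.0101), in a fit of those 4 libraries alone (0.0129), and in each fit without a Col-0 library, a jazD library or LNJ-OX replicate 2, where adjusted p-values ran up to 0.076. In jazD against Col-0, MYB113 was called with DESeq2 (adjusted p 0.000109), without a filter on low counts (6.08e-07), in a fit of those 4 libraries alone (0.00155), with the replicate number as a block (0.00167), and without LNJ-OX replicate 1 (0.00155) or replicate 2 (0.0012). Over all alternatives its adjusted p in that comparison ran from 6.08e-07 to 0.103.

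The other 3 anthocyanin MYB genes did not share this pattern. PAP1 (AT1G56650), the most abundant of the family per kilobase of exon in each genotype, stood at 16.9 and 12.7 CPM in LNJ-OX, 19.5 and 16.9 CPM in jazD, and 33.0 and 15.7 CPM in Col-0, with log2 fold changes against Col-0 of -0.72 ± 0.33 in LNJ-OX and -0.43 ± 0.33 in jazD. PAP2 (AT1G66390, chr1:24763941-24765541) stood at 1.65 and 2.75 CPM in LNJ-OX, 2.31 and 7.64 CPM in jazD, and 7.12 and 3.66 CPM in Col-0. Its jazD replicates spanned nearly the whole range, and the LNJ-OX libraries lay below both Col-0 libraries. The log2 fold change of PAP2 was -1.32 ± 0.58 in LNJ-OX (unadjusted p 0.0436, adjusted p 0.255) and -0.12 ± 0.55 in jazD. MYB114 (AT1G66380, chr1:24757298-24758953) was read from 3 to 33 counts per library, and the 95% interval of its change in LNJ-OX ran from -2.24 to 1.35 on the log2 scale.

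Close copies can share reads. The annotated transcripts of MYB114 and PAP2 share 38 stretches of 50 bases, so their counts are uncertain, as are those of PAL1 and PAL2, which share 31. The MYB113 transcript shares 0 such stretches with PAP1, PAP2 or MYB114. Per kilobase of exon, MYB113 was at 14.6 CPM and PAP1 at 16.4 CPM in jazD, against 3.06 and 21.9 CPM in Col-0. In LNJ-OX these levels were 2.57 CPM for MYB113 and 13.4 CPM for PAP1.

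**Figure D4:**
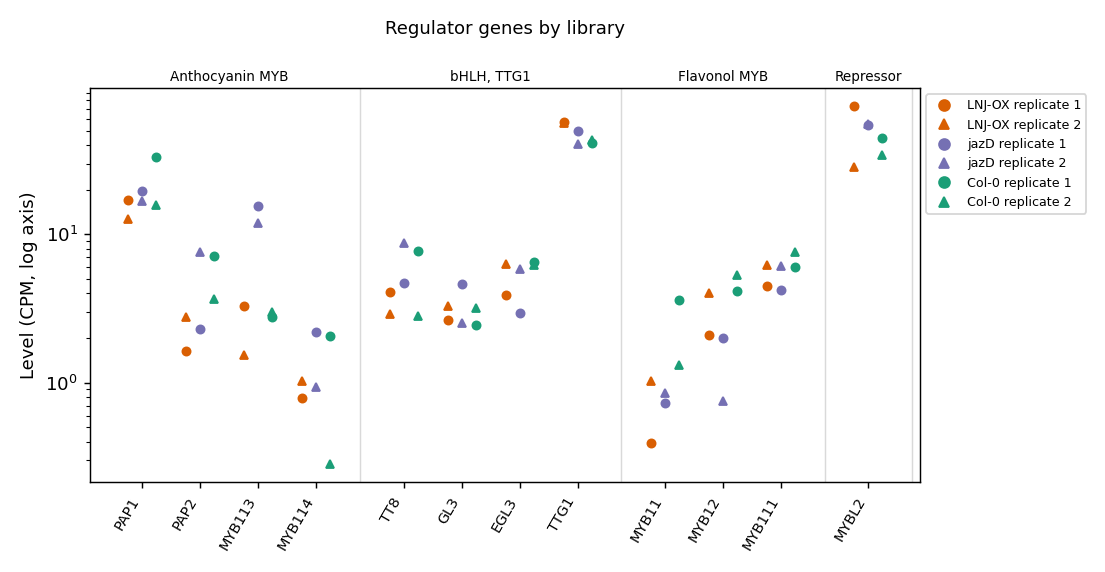
Level of each regulator gene in CPM on a log axis, with circles for replicate 1 and triangles for replicate 2 of LNJ-OX, jazD and Col-0 from left to right within a gene. MYB113 in jazD, at 15.6 and 11.97 CPM, stands clear of the LNJ-OX and Col-0 libraries, while MYB11 and MYB12 are lower in both jazD libraries than in Col-0.

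The partners of the anthocyanin MYB proteins did not pass an unadjusted p of 0.05 in any comparison. TT8 (AT4G09820) stood at 4.08 and 2.93 CPM in LNJ-OX, 4.72 and 8.67 CPM in jazD, and 7.69 and 2.82 CPM in Col-0. GL3 (AT5G41315) and EGL3 (AT1G63650), which also act in trichomes, ranged from 2.46 to 4.61 CPM and from 2.94 to 6.55 CPM over the 6 libraries. TTG1 (AT5G24520) was higher in both LNJ-OX libraries, at 57.1 and 56.0 CPM, than in jazD at 49.9 and 40.8 CPM or Col-0 at 41.0 and 42.9 CPM. Set against Col-0, TTG1 differed in LNJ-OX by 0.43 ± 0.22 on the log2 scale (unadjusted p 0.0784, adjusted p 0.341). MYBL2 (AT1G71030), a repressor of the complex, stood at 73.3 and 28.6 CPM in LNJ-OX, 54.3 and 55.1 CPM in jazD, and 44.6 and 34.4 CPM in Col-0, with the LNJ-OX replicates on either side of all others.

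The flavonol activators had negative log2 fold changes in both genotypes, from low counts. MYB12 (AT2G47460) stood at 2.11 and 4.04 CPM in LNJ-OX, 1.99 and 0.754 CPM in jazD, and 4.16 and 5.35 CPM in Col-0. Both jazD libraries were below all other libraries. The log2 fold change was -1.79 ± 0.55 in jazD (unadjusted p 0.00795, adjusted p 0.116) and -0.63 ± 0.51 in LNJ-OX (adjusted p 0.558), and LNJ-OX against jazD gave 1.16 ± 0.56 (adjusted p 0.414). MYB11 (AT3G62610) had 6 and 12 counts in LNJ-OX, 7 and 9 in jazD, and 57 and 14 in Col-0. Col-0 replicate 1 was far above the rest. Log2 fold changes of MYB11 were -1.83 ± 0.70 in LNJ-OX (unadjusted p 0.0239, adjusted p 0.186) and -1.64 ± 0.71 in jazD (unadjusted p 0.0403, adjusted p 0.301), and without Col-0 replicate 1 these were -0.89 and -0.70. MYB111 (AT5G49330) ranged from 4.19 to 7.61 CPM, and differed from Col-0 by -0.36 ± 0.36 in LNJ-OX and -0.40 ± 0.36 in jazD on the log2 scale.

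MYB111 lies near a locus that gave no reads in jazD. AT5G49440, the tenth listed locus beyond it, had counts of 1421 and 843 in LNJ-OX, 0 and 0 in jazD, and 2046 and 985 in Col-0, and was called lower in jazD. Of the 20 loci listed on either side of MYB111, 11 were tested, and the other one called was AT5G49360, higher in LNJ-OX than in Col-0 (log2 fold change 1.46, adjusted p 0.00783). MYB111 itself kept 40 or more counts in each jazD library. Around MYB113, 12 of 20 neighbours were tested and the one called was AT1G66465, higher in LNJ-OX than in Col-0 (log2 fold change 1.90, adjusted p 0.00594).

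Among 36 other genes of the pathway and its regulators, 32 were tested and 0 were called in any comparison in edgeR. At an unadjusted p under 0.05, 5 of these 32 were higher and 4 lower in LNJ-OX against Col-0, where 8.97 and 9.4% of all loci were. In jazD against Col-0, 8 were higher and 6 lower, where 6.26 and 8.59% of all loci were. In the lignin and phenolic ester branch, SNG1 (AT2G22990), which makes sinapoylmalate, stood at 316 and 248 CPM in LNJ-OX, 344 and 306 CPM in jazD, and 178 and 182 CPM in Col-0. The log2 fold changes of SNG1 were 0.65 ± 0.27 in LNJ-OX (adjusted p 0.227) and 0.85 ± 0.27 in jazD (adjusted p 0.127). CCOAOMT1 (AT4G34050) and CCR1 (AT1G15950), which act toward lignin, had log2 fold changes of -0.25 and -0.28 in LNJ-OX, and of -0.69 and -0.35 in jazD. The 16 genes of that branch had medians of 0.06 in LNJ-OX and -0.10 in jazD. PAL4 (AT3G10340), named after its values were seen, had a log2 fold change of -1.43 ± 0.30 in jazD (adjusted p 0.0252).

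Genes that decorate flavonoids followed the enzymes in sign, with 5 of 6 negative in each genotype and medians of -0.44 in LNJ-OX and -0.47 in jazD. The largest by level were UGT89C1 (AT1G06000), a flavonol rhamnosyltransferase, with -0.34 ± 0.34 and -0.60 ± 0.34, SCPL10 (AT2G23000) with -0.99 ± 0.29 and -0.49 ± 0.28, and BGLU10 (AT4G27830) with 0.30 ± 0.23 and 0.11 ± 0.23 in LNJ-OX and jazD against Col-0. Of the proanthocyanidin genes, which act in the seed coat, 4 of 6, BAN among them, were too low to test. TT12 (AT3G59030), a vacuolar transporter, was lower in LNJ-OX at 2.83 and 3.18 CPM than in jazD at 5.98 and 11.9 CPM (log2 fold change -1.57 ± 0.42, adjusted p 0.0979), and AHA10 (AT1G17260), a proton pump, gave -0.37 ± 0.51 in that comparison.

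Other repressors of the pathway went both ways. LBD37 (AT5G67420), a nitrate-induced repressor of anthocyanin genes, stood at 89.0 and 57.7 CPM in LNJ-OX, 65.8 and 72.5 CPM in jazD, and 45.8 and 47.0 CPM in Col-0, and differed from Col-0 by 0.66 ± 0.26 in LNJ-OX and 0.57 ± 0.26 in jazD on the log2 scale (adjusted p 0.196 and 0.332). Its relatives LBD38 and LBD39, named after their values were seen, had log2 fold changes of 1.32 ± 0.38 and 2.04 ± 0.54 in LNJ-OX, while jazD gave 1.12 ± 0.38 and 1.57 ± 0.54, with adjusted p-values from 0.0585 to 0.163. The Col-0 replicates of both genes lay far apart, at 4.35 and 11.2 CPM for LBD38 and 2.84 and 12.3 CPM for LBD39. In jazD the levels were 15.2 and 18.1 CPM for LBD38 and 17.2 and 26.6 CPM for LBD39. MYB4 (AT4G38620), a repressor of phenylpropanoid genes, had -0.58 ± 0.21 in LNJ-OX and -0.04 ± 0.21 in jazD, and SPL9 (AT2G42200) had -0.17 ± 0.27 and -0.74 ± 0.27. MYB32 (AT4G34990), a relative of MYB4 that was likewise named after its values were seen, stood at 5.86 and 7.92 CPM in LNJ-OX, 6.92 and 9.80 CPM in jazD, and 17.0 and 15.7 CPM in Col-0. Its log2 fold changes were -1.25 ± 0.30 in LNJ-OX (adjusted p 0.036) and -0.96 ± 0.30 in jazD (adjusted p 0.114).

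The bHLH factors and TTG1 also serve trichome genes, of which 5 of 7 were positive in LNJ-OX and 6 of 7 in jazD, and 0 were called. Of all loci, 50.7 and 49.2% were negative in these comparisons. At an unadjusted p under 0.05, 3 trichome genes were higher and 2 lower in LNJ-OX, and 1 was higher and 1 lower in jazD. TRY (AT5G53200), an inhibitor of trichome fate, stood at 5.79 and 9.55 CPM in LNJ-OX, 20.7 and 16.9 CPM in jazD, and 16.6 and 20.9 CPM in Col-0. LNJ-OX lay below both other genotypes, with log2 fold changes of -1.29 ± 0.30 against Col-0 (adjusted p 0.034) and -1.30 ± 0.30 against jazD (adjusted p 0.0564). GL2 (AT1G79840), which promotes trichome growth, had 1.17 ± 0.32 in LNJ-OX (adjusted p 0.0675) and 0.92 ± 0.32 in jazD (adjusted p 0.175), and TTG2 (AT2G37260) had 0.78 ± 0.38 and 0.52 ± 0.39 against Col-0.

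**Figure D5:**
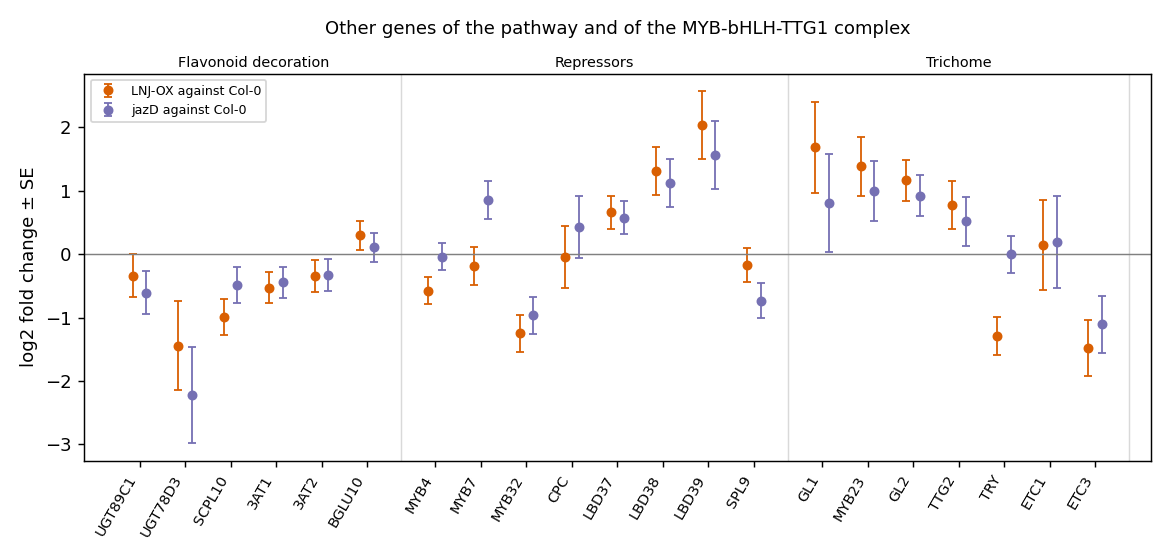
Log2 fold change with its standard error for other genes of the pathway and of the MYB-bHLH-TTG1 complex, in LNJ-OX against Col-0 (left point of each gene) and jazD against Col-0 (right point). LBD37, LBD38 and LBD39 lie above 0 in both, and TRY lies at -1.29 in LNJ-OX and near 0 in jazD.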

How the data were processed

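Each library of 3 genotypes (2 libraries each) came with a file in which the authors deposited whole read counts per gene from htseq-count. The submitters' processing notes name Trim Galore 0.6.3, HISAT2 2.1.0, HTSeq 0.9.1, limma 3.38.3 and TAIR10, and the strand setting is not given in the sources used here, so reads of overlapping or antisense genes cannot be told apart. Tissue and age follow the labels, although leaves of a somewhat other age are named in the study's methods. The authors' tables of fold changes and p-values were not used. The members and lists were chosen with earlier results of these data known.

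Counts of all 6 libraries entered 1 fit (edgeR 4.0.16 under R 4.3.3) with genotype as the only term, TMM scaling, the filterByExpr minimum and the quasi-likelihood test, with Benjamini-Hochberg adjustment over 21374 loci. CPM used TMM-scaled totals, and differences between replicates used log2 CPM with a prior count of 2. Tried beside it were scaling by relative log expression or by library totals, testing without the minimum or with one of 1 CPM in 2 libraries, the tools DESeq2 1.42.0 and limma-voom 3.58.1, fits of 4 libraries, the replicate number as a block, looser thresholds and leaving out each library. The procedure was tested on simulated data. Libraries of 1 genotype differed by more than sampling noise (chi-square per degree of freedom 14.8 to 42.8), so none was counted as a repeat. In the main fit, p-values rest on the spread between libraries within genotypes, taken over all 6 libraries. Each genotype gives only 2 libraries to that spread, and a comparison also draws on libraries of the genotype outside it.

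All 32 members were named, in full where a comparison had an unadjusted p under 0.05. Of other lists, called genes and the 3 with the highest mean CPM were named, and of loci near MYB111 those called. PAL4, LBD38, LBD39, MYB32, the neighbours of MYB113 and the classes of flower genes were added after values were seen. An alignment of MYB proteins was planned and was replaced by shared stretches of transcripts. The 250 bases before each start were taken from RefSeq TAIR10.1, in which all 32 members were matched.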

Additional observations from a re-analysis of the deposited data

Results flagged for a closer look

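MYB113 differed between the effects of the 2 genotypes by a test of the difference itself. LNJ-OX set against jazD gave -2.48 ± 0.40 (SE) on the log2 scale with an adjusted p of 0.0097 in edgeR, and both LNJ-OX libraries (3.29 and 1.55 CPM) lay below both jazD libraries (15.6 and 11.97 CPM). The adjusted p ran from 4.91e-08 to 0.076 over the alternatives.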

How the results depend on the processing

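With 2 libraries per genotype, members read at a few CPM had standard errors up to 0.83 on the log2 scale. Members called lower in LNJ-OX against Col-0 numbered 2 without a filter (which called 2.35% of loci lower), 2 with DESeq2, 2 when only an adjusted p under 0.05 was asked and 13 when an unadjusted one was, against 0. Members called higher in jazD against Col-0 numbered 1 without a filter, with DESeq2, in the fit of 4 libraries and at both looser thresholds. The shares of loci called higher were 1.75% without a filter, 1.3% with DESeq2 and 0.876% in the fit of 4 libraries. At the looser thresholds they were 1.44% (adjusted p under 0.05) and 6.26% (unadjusted p under 0.05). Members called lower in jazD numbered 3 without a filter (F3'H, FLS1 and MYB12), where 3.02% of loci were called lower, and 7 at an unadjusted p under 0.05. In LNJ-OX against jazD, 0 were called lower with library totals, a filter at 1 CPM, limma-voom or 4 libraries, 0 to 1 when a library was left out, and 3 lower and 1 higher at an unadjusted p under 0.05. When a library was left out, the late median in LNJ-OX against Col-0 ran from -0.80 to -0.37, the early median in LNJ-OX against jazD from -0.45 to 0.47, and the change of MYB113 in LNJ-OX against Col-0 from -0.88 to 0.19. Of 1343 member values under alternatives, 47 changed sign, 44 of them when a library was left out, and 0 belonged to a member at an unadjusted p under 0.05. Library totals moved the median of all loci by at most 0.09.

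By replicate number the libraries showed little pairing, with correlations of deviations of 0.09, 0.06 and -0.00 between genotypes. Pairing within smaller sets of genes was not tested. The general phenylpropanoid genes were all lower in replicate 1 in LNJ-OX and Col-0, and all higher in replicate 1 in jazD. With the replicate number as a block, 1 member (MYB113) was called higher in jazD against Col-0 (adjusted p 0.00167), as were 1.13% of all loci. The other counts of member calls were as without the block.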
